A study of Mus musculus with 6 samples.

Results

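The cytochrome P450 genes outside family 2 were followed in bulk RNA of mouse liver. They were taken as every gene of the count table whose symbol had the form of a P450 gene (Cyp, a family number, a subfamily letter and a gene number) and did not belong to family 2, leaving out the bile acid synthesis genes Cyp7a1, Cyp7b1, Cyp8b1 and Cyp27a1. That gave 46 of the 35977 genes in the table; family 2, which was not part of the set, had 48. The rule did not use expression, though the set was chosen with earlier results of these data known. Symbols of another form, such as Cyp51, were outside the rule.

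Cytochromes P450 are haem enzymes that insert an oxygen atom into their substrates, and those of the endoplasmic reticulum take their electrons from P450 oxidoreductase, the product of Por. In liver the Cyp1 and Cyp3a enzymes oxidise drugs, plant compounds and steroids, and their genes are classic targets of the aryl hydrocarbon receptor (Cyp1) and of the pregnane X receptor (Cyp3a11). The Cyp4 enzymes hydroxylate the far end of fatty acids and eicosanoids, and Cyp4a10 and Cyp4a14 are textbook targets of the fatty acid sensor PPAR alpha. Other families degrade retinoic acid (Cyp26), handle oxysterols (Cyp39a1, Cyp46a1), make steroid hormones (Cyp11, Cyp17, Cyp19, Cyp21) or act on vitamin D (Cyp24a1, Cyp27b1), and several of the liver genes differ between male and female mice.

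The study compared livers of mice given an adeno-associated virus that carries Cre under the promoter of Tnnt2, the cardiac troponin T gene (AAV-Tnnt2-Cre, called Cre here, replicates 10, 11 and 12), with livers given the same kind of vector bearing miR-122 target sites (AAV-Tnnt2-Cre-miR122, called Cre-miR122, replicates 1, 2 and 4). miR-122 is a microRNA abundant in hepatocytes, and the stated aim was to see what the second vector does in liver. Both groups therefore received virus and Cre, and no uninjected liver was analysed here. The labels give no strain, age, sex, dose or time, and do not say that the libraries came from separate animals, so the p-values reflect only how far these samples scatter, which may be partly technical.

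Each library held 20340994 to 20817837 counts, with a common biological coefficient of variation of 11.8%. Cre replicate 10 stood apart by sex-linked genes, with 5 counts of Xist against 15778 to 22413 in the other 5 libraries and 1676 of Ddx3y, a gene on the Y chromosome, against at most 1. Sex-biased P450 genes are therefore also given without it. Hepatocyte markers were abundant in every library (127529 to 151577 CPM, counts scaled to a common library total, summed over 9 genes), with Cre replicate 11 the lowest. All 7 kidney tubule markers averaged under 1 CPM and 4 of them were at 0 in every library. Of 9 adrenal and gonad markers, 3 of which are P450 genes of the set, 7 averaged under 1 CPM. The others were Star at 3.05 CPM and Hsd3b1 at 36.3 CPM. The 7 B cell markers summed to 25.96 to 33.6 CPM in Cre and 15.3 to 21.3 CPM in Cre-miR122, and their part in the P450 values was not tested. In bulk RNA, fewer cells of a type and less RNA per cell cannot be told apart.

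No P450 gene of the set passed the test between the vectors. Of the 46 genes, 27 had enough counts to be tested, and 0 of these 27 were called at a Benjamini-Hochberg adjusted p under 0.05 with edgeR, as were 0 of all 14374 tested genes (0%). Adjusted p in edgeR ran from 0.816 to 0.999 over the 27. DESeq2 and limma-voom called none of the 27 either, while DESeq2 called 3 genes over the whole table. At an unadjusted p under 0.05 there was 1 of the 27 in edgeR, Cyp39a1, against 5.41% of all genes (2.76% higher and 2.65% lower), with 2 in DESeq2 (3.62% of all genes) and 1 in limma-voom (5.54%). The log2 fold change (Cre-miR122 minus Cre) was above 0 for 14 of the 27, against 49.4% of all genes, and its median was 0.0078 against -0.0029 over all genes.

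The summed level of the set was 4684, 5176 and 6270 CPM in the Cre libraries and 6347, 4689 and 5110 CPM in the Cre-miR122 libraries, or 0.464% to 0.623% of all counts. The group means were 5377 ± 812 and 5382 ± 862 CPM (SD, n = 3 each), a log2 ratio of 0.0014. Each group held low and high libraries, with Cre replicate 10 and Cre-miR122 replicate 2 at the bottom and Cre replicate 12 and Cre-miR122 replicate 1 at the top. Cyp3a genes gave 58.5% to 63.5% of the sum and Cyp4a genes 15.9% to 22.9%. Cyp1 gave 5.19% to 7.20% and Cyp4f 4.81% to 6.71%.

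**Figure D1:**
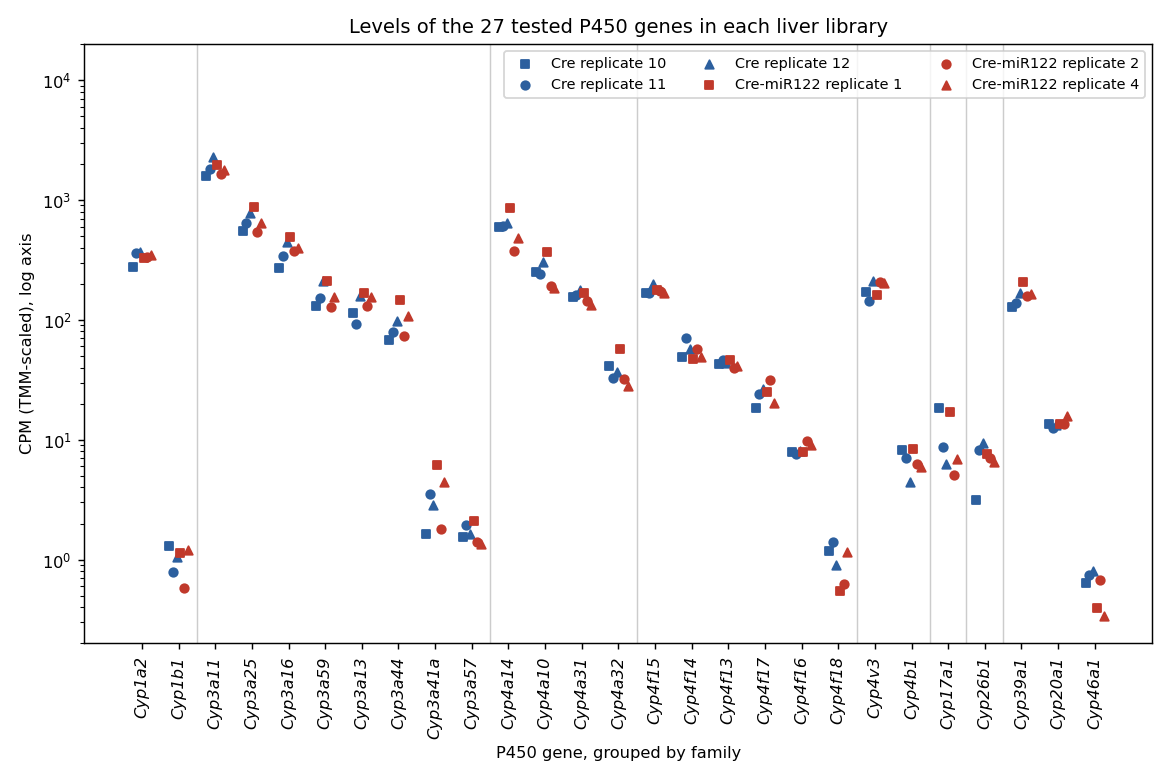
Level of each of the 27 tested P450 genes in each of the 6 libraries, in TMM-scaled CPM on a log axis, with genes grouped by family, Cre libraries in blue and Cre-miR122 libraries in red. Blue and red points overlap for 26 of the 27 genes, and Cyp3a11 is the most abundant at 1599.9 to 2282 CPM.

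Per kilobase of transcript (RPKM, mean of the 6 libraries), Cyp3a11 was the most abundant gene of the set at 899, followed by Cyp3a25 at 307, Cyp3a16 at 211, Cyp4a14 at 179, Cyp1a2 at 178 and Cyp4a10 at 123. Below Cyp3a11, the ranges over the libraries overlapped between neighbours in this order, which is one of means only. They were 248 to 399 RPKM for Cyp3a25, 149 to 267 RPKM for Cyp3a16 and 113 to 259 RPKM for Cyp4a14. Cyp1a2 ran from 145 to 196 RPKM and Cyp4a10 from 88.3 to 177 RPKM. The genes were not compared library by library. Cyp3a11 stayed above all the others in every library, with its lowest value of 779 RPKM above the highest of Cyp3a25, 399 RPKM. Next came Cyp4f15 at 80.3, Cyp4v3 at 62.5, Cyp4a31 at 61.6, Cyp3a59 at 60.8 and Cyp39a1 at 51.8 RPKM. The 5 genes with the highest CPM held 69.7% to 72.9% of the summed level.

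The Cyp3a genes are shown first with their promoters, since they lead the set and many of their neighbours are close copies. 8 of the 9 lie within chr5:145345149-146113791 (GRCm38/mm10), and Cyp3a13 lies apart at chr5:137892933-137921619. The stretches printed here end just before the gene start and come from the RefSeq promoter table of build GRCm38.p6, given 5′ to 3′ on the gene's own strand. Capitals mark CAAAGTCCA (or TGGACTTTG on the other strand), the kind of site that the hepatocyte factor HNF4 alpha binds, and AGGTCA (or TGACCT), the hexamer of many nuclear receptors.
Cyp3a11 at chr5:145879855-145880034, minus strand: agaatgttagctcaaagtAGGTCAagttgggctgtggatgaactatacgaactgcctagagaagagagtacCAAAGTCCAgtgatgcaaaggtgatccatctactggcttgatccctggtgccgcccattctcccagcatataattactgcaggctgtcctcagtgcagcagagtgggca
Cyp3a16 at chr5:145469744-145469903, minus strand: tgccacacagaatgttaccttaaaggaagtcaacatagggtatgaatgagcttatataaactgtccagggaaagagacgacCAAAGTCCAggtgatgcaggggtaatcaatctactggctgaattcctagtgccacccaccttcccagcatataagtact
Cyp3a41a at chr5:145720137-145720316, minus strand: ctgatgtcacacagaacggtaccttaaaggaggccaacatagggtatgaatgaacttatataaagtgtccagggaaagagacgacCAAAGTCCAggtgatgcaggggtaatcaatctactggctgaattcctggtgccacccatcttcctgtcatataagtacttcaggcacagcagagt
Cyp3a41b at chr5:145584733-145584910, minus strand: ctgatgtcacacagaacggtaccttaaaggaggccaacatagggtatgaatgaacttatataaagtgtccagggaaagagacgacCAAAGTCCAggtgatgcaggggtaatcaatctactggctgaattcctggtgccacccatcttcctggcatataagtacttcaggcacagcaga
Cyp3a44 at chr5:145805892-145806054, minus strand: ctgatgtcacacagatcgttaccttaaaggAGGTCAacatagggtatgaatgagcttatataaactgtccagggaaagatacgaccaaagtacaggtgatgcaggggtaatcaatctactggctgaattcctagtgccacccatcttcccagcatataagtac
Cyp3a25 at chr5:146009645-146009798, minus strand: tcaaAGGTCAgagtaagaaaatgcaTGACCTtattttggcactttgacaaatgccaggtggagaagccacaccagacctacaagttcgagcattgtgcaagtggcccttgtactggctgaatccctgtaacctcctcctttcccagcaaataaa
Cyp3a57 at chr5:145345089-145345148, plus strand: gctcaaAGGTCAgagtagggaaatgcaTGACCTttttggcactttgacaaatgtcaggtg
Cyp3a59 at chr5:146079078-146079207, plus strand: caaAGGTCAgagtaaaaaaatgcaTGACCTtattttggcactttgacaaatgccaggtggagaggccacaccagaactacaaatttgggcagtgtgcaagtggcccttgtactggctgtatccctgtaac
CAAAGTCCA stood in 156 of all 32851 promoter windows of 300 bases (0.475%). In the set it was found in Cyp3a11, Cyp3a16, Cyp3a41a and Cyp3a41b alone, with windows on hand for 33 of the 46 genes. AGGTCA stood in 16.3% of all windows and in 9 of the 41 windows of the set, which belong to 8 genes. The shorter stretches printed here hold 2 copies each for Cyp3a25, Cyp3a57 and Cyp3a59 and 1 each for Cyp3a11 and Cyp3a44. Such matches describe letters only.

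These promoters fell into 2 groups. Identity was taken over the 250 bases before the start in the promoter table. For some genes, such as Cyp3a57, that start lies inside the annotated gene, so transcribed bases are included. Cyp3a41a and Cyp3a41b were 99.6% identical, Cyp3a16 and Cyp3a44 92.9%, and Cyp3a25 and Cyp3a59 94.8%. Between Cyp3a11, Cyp3a16, Cyp3a41a, Cyp3a41b and Cyp3a44 on one side and Cyp3a25, Cyp3a57 and Cyp3a59 on the other, identity was 52.7% to 57.4%. Cyp3a11 was 76.6% identical to Cyp3a16.

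Cyp3a11, the main drug-oxidising P450 of mouse liver and a standard readout of pregnane X receptor activity, was measured at 1599.9, 1820.5 and 2282 CPM in the Cre libraries and at 1952, 1645 and 1774 CPM in the Cre-miR122 libraries. The Cre group held both the lowest and the highest library, so the groups overlapped. The log2 fold change was -0.09 (SE 0.14, 95% interval -0.40 to 0.23, edgeR adjusted p = 0.907, n = 3 each). Without Cre replicate 12, the highest library, it was 0.07, and without Cre replicate 10, the lowest, -0.20.

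Cyp3a25 had 551, 639 and 784 CPM in Cre and 871, 540 and 638 CPM in Cre-miR122. Cyp3a59, its near copy, had 130, 152 and 212 CPM in Cre and 210, 128 and 156 CPM in Cre-miR122. For both genes the 2 high libraries were Cre replicate 12 and Cre-miR122 replicate 1, one on each side. Their log2 fold changes were 0.05 (95% interval -0.36 to 0.46) and -0.00041 (95% interval -0.46 to 0.46). The level of Cyp3a59 relative to Cyp3a25 stayed between 0.236 and 0.270 over the 6 libraries. Of the 50-base words of Cyp3a59, 30.0% also occur in another gene, mostly Cyp3a25, and the part that shared reads have in this ratio was not tested.

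Cyp3a16, Cyp3a41a and Cyp3a44, genes of the cluster known as female-biased in mouse liver, had the higher Cre-miR122 means, none of them past the test. Cyp3a16 had 272, 341 and 445 CPM in Cre and 487, 372 and 399 CPM in Cre-miR122, and Cyp3a44 had 68.0, 79.0 and 98.1 CPM in Cre and 147, 73.0 and 109 CPM in Cre-miR122. Cre replicate 10, with Y-linked transcripts, was the lowest library for both, though for Cyp3a44 it lay close to Cre-miR122 replicate 2. Whether these genes were sex-biased in these livers cannot be read from 1 such library. The log2 fold changes were 0.25 (95% interval -0.14 to 0.64) and 0.42 (95% interval -0.08 to 0.93) with edgeR adjusted p of 0.819 and 0.816. Without Cre replicate 10, that of Cyp3a16 was 0.09 and that of Cyp3a44 0.31, and without Cre-miR122 replicate 1 that of Cyp3a44 was 0.15. The highest values were 0.45 for Cyp3a16, without Cre replicate 12, and 0.64 for Cyp3a44, without Cre-miR122 replicate 2.

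Cyp3a41a was scarce, with 33, 75 and 57 counts in Cre and 123, 37 and 91 counts in Cre-miR122. The highest library held 3.75 times the CPM of the lowest, the widest span of any tested gene of the set, and the groups overlapped. Its log2 fold change was 0.62 (SE 0.41, 95% interval -0.30 to 1.54, edgeR adjusted p = 0.816). Without Cre-miR122 replicate 1 it was 0.21. Leaving out Cre replicate 10 gave 0.37, and leaving out Cre-miR122 replicate 2 gave 0.98. The count is uncertain because 98.6% of its 50-base words occur in other genes, mainly in Cyp3a41b, which had 5 to 12 counts per library and was not tested.

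Cyp3a13, at its separate site, had 115, 92.4 and 158 CPM in Cre and 169, 131 and 156 CPM in Cre-miR122, a log2 fold change of 0.32 (95% interval -0.08 to 0.72, edgeR adjusted p = 0.816). None of its 50-base words is shared with another gene. The low libraries were Cre replicates 10 and 11, while Cre replicate 12 lay among the Cre-miR122 libraries. Without Cre replicate 12 the difference was 0.55, at an unadjusted p of 0.00388 and an adjusted p of 0.454 in edgeR, a setting in which 10.5% of all genes had an unadjusted p under 0.05. Without Cre replicate 11 it was 0.15. Cyp3a57, at 28 to 42 counts, had a log2 fold change of -0.09.

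Within the Cyp3a and Cyp4a clusters, 7 ratios between genes were computed, and 1 of them, Cyp3a16 to Cyp3a11, did not overlap between the vectors. Among the levels of all single tested genes 11.1% do not overlap either, but no such share was computed for ratios. The ratio of Cyp3a16 to Cyp3a11 CPM was 0.170, 0.188 and 0.195 in Cre and 0.249, 0.226 and 0.225 in Cre-miR122. All Cre-miR122 libraries lay above all Cre libraries, with means of 0.184 ± 0.0126 and 0.234 ± 0.0137 (SD, n = 3 each). An exact two-sided permutation test gave p = 0.1, the smallest that 3 against 3 allows. The other 6 ratios overlapped between groups, with exact permutation p of 0.4 to 0.8. Such a p only restates that the groups do not overlap, and the ratio was singled out after the values were seen. Cre replicate 10, with Y-linked transcripts, had the lowest value.

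**Figure D2:**
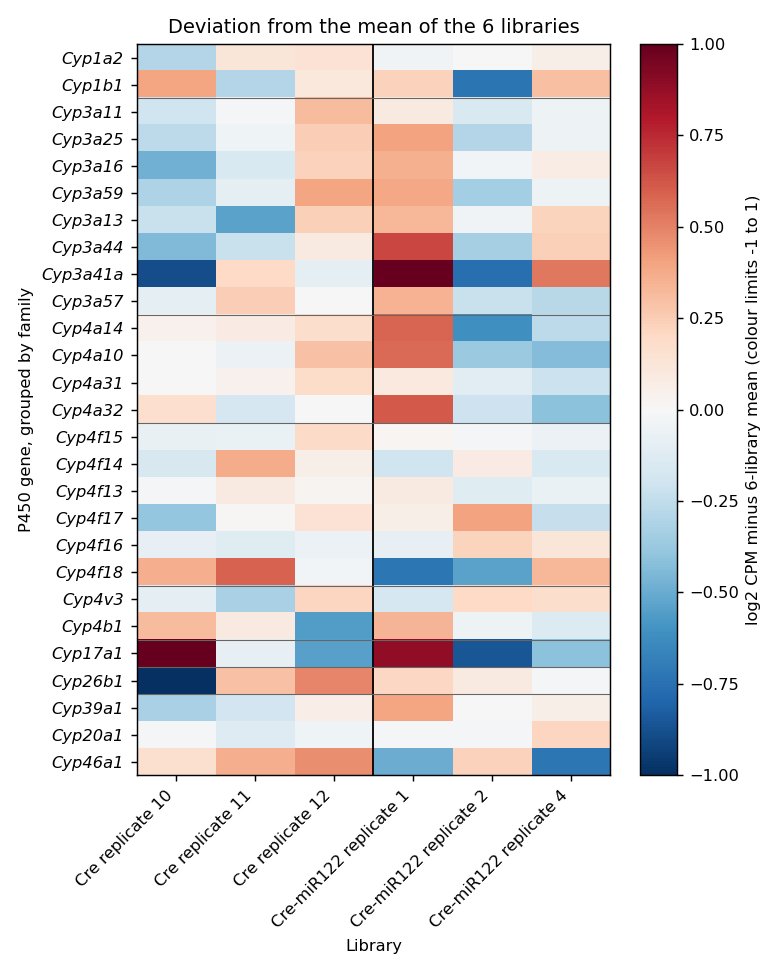
Deviation of each tested P450 gene in each library from its mean over the 6 libraries, in log2 CPM, with red for higher, blue for lower and colours limited to -1 and 1. The Cyp3a and Cyp4a rows are mostly red in Cre-miR122 replicate 1, and the Cyp3a rows are blue in Cre replicate 10.

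The Cyp3a genes varied by library more than by vector. Their median deviations from the mean of the 6 libraries (log2) were -0.28, -0.07 and 0.23 in Cre replicates 10, 11 and 12 and 0.37, -0.26 and 0.01 in Cre-miR122 replicates 1, 2 and 4. Cre-miR122 replicate 1 was the highest library for 12 of the 27 tested genes, among them 6 of 8 Cyp3a and 3 of 4 Cyp4a genes, against 15.9% of all genes. Cre replicate 10 was the lowest for 9 of the 27, among them 4 of the Cyp3a genes, against 15.8% of all genes. Across the 27, the highest library held 1.16 to 3.75 times the CPM of the lowest (median 1.73, against 1.36 over all genes with more than 3 counts in each library), and in 10 of them at least 2 times.

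**Figure D3:**
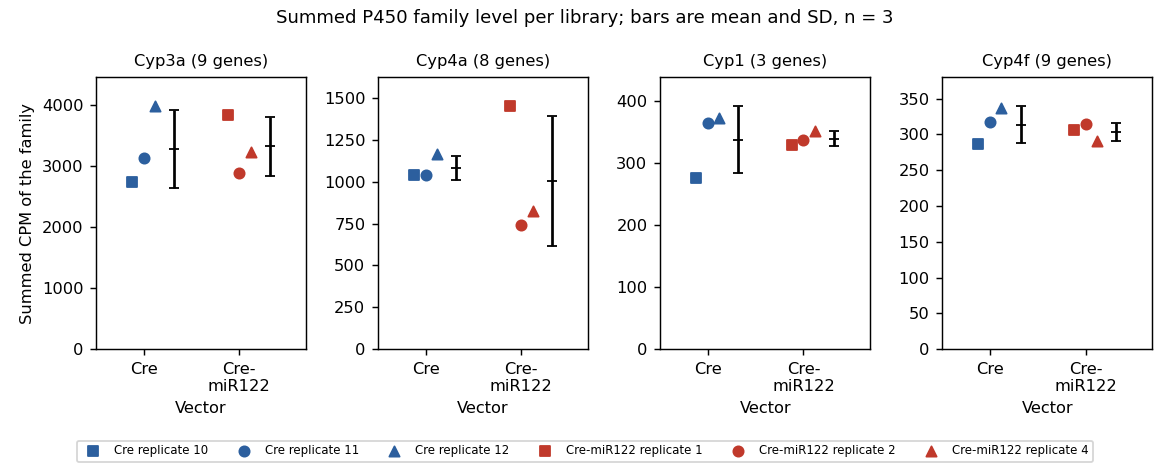
Summed CPM of the Cyp3a, Cyp4a, Cyp1 and Cyp4f genes in each library, with the group mean and SD (n = 3) beside the points and each axis starting at 0. The Cre and Cre-miR122 means are close in each family, while Cyp4a spans 744 to 1450 CPM within the Cre-miR122 group.

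The Cyp4a cluster of 8 genes lies at chr4:115242084-115622507 (GRCm38/mm10). Cyp4a14, an induced fatty acid hydroxylase, had 593, 609 and 647 CPM in Cre and 858, 375 and 478 CPM in Cre-miR122. Cyp4a10 had 250, 240 and 306 CPM in Cre and 369, 193 and 184 CPM in Cre-miR122. In both genes the Cre libraries sat together, Cre-miR122 replicate 1 lay above all of them, and Cre-miR122 replicates 2 and 4 lay below all of them.

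With all 6 libraries the log2 fold change of Cyp4a14 was -0.11 (SE 0.25, 95% interval -0.67 to 0.45, edgeR adjusted p = 0.938) and that of Cyp4a10 -0.09 (95% interval -0.63 to 0.45). Without Cre-miR122 replicate 1 they were -0.53 (unadjusted p = 0.00242) and -0.49 (unadjusted p = 0.00312), each with an edgeR adjusted p of 0.628. Other libraries moved them too: Cyp4a10 was 0.02 when Cre replicate 12 was left out. Leaving out Cre-miR122 replicate 4 gave 0.08 for Cyp4a10, and leaving out Cre-miR122 replicate 2 gave 0.06 for Cyp4a10 and 0.11 for Cyp4a14. Without Cre-miR122 replicate 1, 5 genes of the set reached an unadjusted p under 0.05, against 7.79% of all genes, and 4 of the 5 were Cyp4a genes. The fifth was Cyp1a1 at 0.95, a gene too scarce to test with all 6 libraries. It entered this test through the 2 Cre-miR122 libraries left, with 13 and 17 counts against 7 or 8 in each Cre library. No gene of the set was called there either.

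Cyp4a31 and Cyp4a32 are neighbours of the same type. Cyp4a31 had 156, 160 and 176 CPM in Cre and 167, 144 and 134 CPM in Cre-miR122, a log2 fold change of -0.15 (95% interval -0.37 to 0.08), which was -0.24 without Cre-miR122 replicate 1. Cyp4a32 had 41.6, 32.9 and 36.9 CPM in Cre and 56.8, 32.1 and 27.9 CPM in Cre-miR122, a log2 fold change of 0.07, which was -0.31 without Cre-miR122 replicate 1. Cyp4a32 shares 43.8% of its 50-base words with other genes and Cyp4a10 29.8%, so their counts are uncertain.

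Cyp4a12a and Cyp4a12b, the male-specific members of liver and kidney, were near 0. Cyp4a12a had 1, 0 and 0 counts in Cre and 1, 0 and 1 counts in Cre-miR122, and Cyp4a12b had a single count, in Cre-miR122 replicate 1. Cre replicate 10, the library with Y-linked transcripts, held 1 count of Cyp4a12a and 0 of Cyp4a12b, under the floor of 3 counts (0.140 to 0.150 CPM over the libraries). These genes share 48.9% and 49.4% of their 50-base words, and the sources used here do not say how reads that match both were counted. Cyp4a29 and Cyp4a30b had no counts at all.

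The Cyp4f genes, whose enzymes act on leukotrienes and other eicosanoids, summed to 286 to 337 CPM in Cre and 290 to 314 CPM in Cre-miR122. 8 of the 9 lie at chr17:32452697-32947415 (GRCm38/mm10), and Cyp4f18 is on chromosome 8. Cyp4f15, the most abundant, had 168, 168 and 201 CPM in Cre and 178, 175 and 169 CPM in Cre-miR122. Cyp4f13 had 42.6, 45.9 and 44.0 CPM in Cre and 46.1, 39.8 and 41.4 CPM in Cre-miR122. The groups overlapped for both. Their log2 fold changes were -0.04 (95% interval -0.25 to 0.17) and -0.06 (95% interval -0.25 to 0.13), the narrowest intervals of the set.

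Cyp4f14, which oxidises leukotriene B, had 48.6, 70.3 and 56.7 CPM in Cre and 47.5, 57.6 and 49.0 CPM in Cre-miR122. Its log2 fold change was -0.19 (95% interval -0.50 to 0.12). It was -0.04 without Cre replicate 11, the highest library, and -0.31 without Cre replicate 10. Cyp4f16 and Cyp4f17 had log2 fold changes of 0.18 and 0.16. Cyp4f18, known from neutrophils, had 24, 30 and 18 counts in Cre and 11, 13 and 24 in Cre-miR122, a log2 fold change of -0.57 (95% interval -1.33 to 0.18, edgeR adjusted p = 0.816). Cyp4f39 had 4 to 6 counts per library, Cyp4f40 had 1 count in all and Cyp4f37 none.

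Cyp4v3, a fatty acid hydroxylase, had 170, 145 and 210 CPM in Cre and 161, 208 and 204 CPM in Cre-miR122, and Cyp4b1, better known from lung, had 8.17, 6.99 and 4.45 CPM in Cre and 8.33, 6.33 and 5.95 CPM in Cre-miR122. The groups overlapped for both genes, and the log2 fold changes were 0.13 and 0.07.

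**Figure D4:**
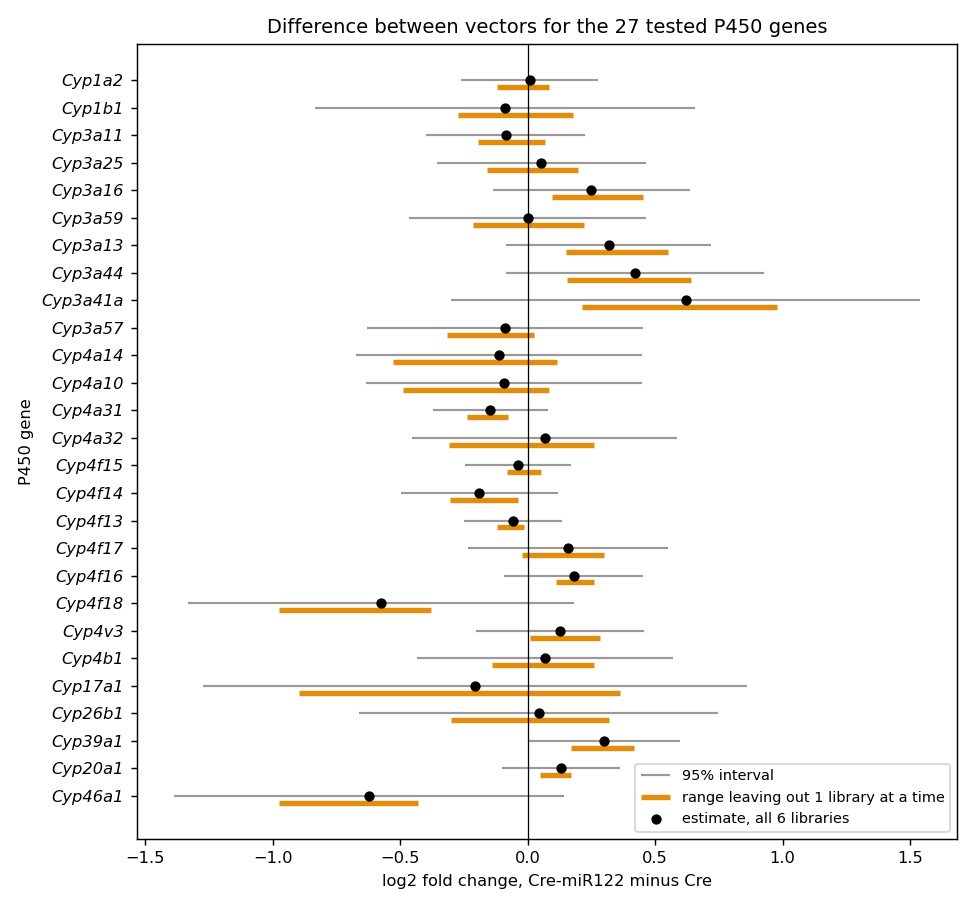
Log2 fold change (Cre-miR122 minus Cre) of the 27 tested P450 genes, with points for the estimate from all 6 libraries, grey lines for the 95% interval and orange lines for the range when 1 library at a time is left out. 26 of the 27 grey lines cross 0, all but that of Cyp39a1, and the orange lines of Cyp4a14 and Cyp4a10 run to about -0.53 and -0.49.

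Among the Cyp1 genes, Cyp1a2, an aryl hydrocarbon receptor target of hepatocytes around the central vein, had 274, 364 and 371 CPM in Cre and 328, 336 and 350 CPM in Cre-miR122. The Cre-miR122 libraries lay inside the Cre range, whose low end was Cre replicate 10. This gave a log2 fold change of 0.0078 (SE 0.12, 95% interval -0.26 to 0.28, edgeR adjusted p = 0.989). Cyp1a1, the strongly inducible member, had 8, 8 and 7 counts in Cre and 8, 13 and 17 in Cre-miR122 and was too scarce for the test. Cyp1b1, mostly expressed outside liver, had 12 to 26 counts per library and a log2 fold change of -0.09 (95% interval -0.83 to 0.66).

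Cyp39a1, which hydroxylates an oxysterol on the way to bile acids, had 127, 139 and 167 CPM in Cre and 209, 159 and 166 CPM in Cre-miR122. The groups overlapped because Cre replicate 12 reached the level of Cre-miR122 replicates 2 and 4. Its log2 fold change was 0.30 (SE 0.13, 95% interval 0.01 to 0.60, unadjusted p = 0.0469, edgeR adjusted p = 0.816). Cyp39a1 is also known as female-biased in mouse liver, and Cre replicate 10 was its lowest library. That library was the lowest for 9 of the 27 tested genes, and the part of sex was not tested. Without Cre-miR122 replicate 1 the difference was 0.17, without Cre replicate 10 0.22 and without Cre replicate 12 0.42.

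Cyp46a1, the cholesterol hydroxylase of brain, had 13, 16 and 16 counts in Cre and 8, 14 and 7 in Cre-miR122. Its difference was -0.62 on the log2 scale (95% interval -1.39 to 0.14). With so few counts it passed the filter through the Cre libraries, where it was higher. It was not tested when 1 CPM in 3 libraries was required. Cyp20a1, an enzyme with no settled substrate, had 13.5, 12.5 and 13.3 CPM in Cre and 13.5, 13.5 and 15.9 CPM in Cre-miR122. It was the single gene of the 27 whose groups did not overlap, against 11.1% of all genes (5.69% higher), and the margin between the groups was smaller than the rounding of these values. On the log2 scale the difference was 0.13 (95% interval -0.10 to 0.36, edgeR adjusted p = 0.821).

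Of the retinoic acid hydroxylases, Cyp26b1 had 3.17, 8.16 and 9.35 CPM in Cre and 7.68, 7.06 and 6.58 CPM in Cre-miR122. Cre replicate 10 stood below all the others, and the other 5 libraries lay between 6.58 and 9.35 CPM. The log2 fold change was 0.04 (95% interval -0.66 to 0.75). It was -0.30 without Cre replicate 10 and 0.32 without Cre replicate 12. In adult liver Cyp26b1 is known from stellate cells. The summed level of 9 stellate cell markers was 671 CPM in Cre replicate 10, against 531 to 642 CPM in the other libraries. The median deviation of these 9 markers in that library from their mean over the 6 libraries was 0.14 (log2). Single markers differed: Rgs5, at 97.1 CPM, lay above the 38.4 to 63.4 CPM of the others. Reln, at 96.7 CPM, lay within their 87.4 to 146 CPM. These 2 were chosen after their values were seen, and the part of stellate cells in the Cyp26b1 values was not tested. Cyp26a1 had 1 to 7 counts per library, and Cyp26c1 1 count in all.

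Cyp17a1, the enzyme that turns progestagens toward androgens and is female-biased in mouse liver, had 18.5, 8.72 and 6.30 CPM in Cre and 17.1, 5.08 and 6.92 CPM in Cre-miR122. The 2 high libraries were Cre replicate 10 and Cre-miR122 replicate 1, 1 in each group. The log2 fold change of -0.21 had an SE of 0.47 and a 95% interval of -1.28 to 0.86. Leaving out Cre replicate 10 gave 0.36, and leaving out Cre-miR122 replicate 1 gave -0.90. The highest value therefore came from the library with Y-linked transcripts.

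The remaining steroid and vitamin D enzymes, which belong to adrenal, gonad and kidney, were near or at 0. Cyp21a1 had 1, 15 and 4 counts in Cre and 5, 7 and 3 in Cre-miR122, and it shares 23.8% of its 50-base words with other genes, mostly its pseudogene. Cyp19a1 and Cyp24a1 had no counts. Cyp11a1, Cyp11b1, Cyp11b2 and Cyp27b1 had 10 counts or fewer in all. In total, 19 of the 46 genes were too scarce to test, 5 of them with no count in any library, 9 with 1 to 10 counts in all and 5 with more.

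The genes around the P450s were read from the same fit. Of the xenobiotic receptors and their partners, 12 were tested, 8 were above 0 and 4 below, and none was called (median log2 fold change 0.04). Rxra, the shared dimer partner, had a log2 fold change of 0.20 and the aryl hydrocarbon receptor gene Ahr 0.23. Of 6 tested aryl hydrocarbon receptor targets, 4 were above 0 and none was called. The list holds 3 P450 genes of the set, and without them 3 of 4 tested genes were above 0. Of 15 tested pregnane X receptor and constitutive androstane receptor targets, 7 were above 0 and 8 below, with Abcc2, a bile canalicular export pump, at 0.31 and Slco1a4, an uptake carrier, at -0.30. None was called.

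Of 21 tested PPAR alpha targets, 16 were below 0 and 5 above (median -0.12), and none was called. 4 of the 21 were lower at an unadjusted p under 0.05, against 2.65% of all genes, and the list holds 4 of the Cyp4a genes. The values with the smallest p were -0.43 for Fabp1, the liver fatty acid binding protein, -0.40 for Acot2, a mitochondrial thioesterase, and -0.24 for Plin2, a lipid droplet coat protein, each with an edgeR adjusted p of 0.816. In all 3 the Cre-miR122 libraries lay below the Cre libraries, which their choice by smallest p made likely. Over the whole list this held for 3 of the 21 tested genes, against 5.45% of all genes. Of the 17 tested targets that are not P450 genes of the set, 4 were above 0 and 13 below, and 4 had their highest value in Cre-miR122 replicate 1.

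Of 16 tested electron donors and haem supply genes, 6 were above 0 and 10 below, with a median of -0.03 and none called. Por, chosen after its values were seen, had 490, 415 and 558 CPM in Cre and 752, 401 and 525 CPM in Cre-miR122. Its highest library was Cre-miR122 replicate 1, which was the highest for 2 of the 16 genes of this list, against 15.9% of all genes. Of 20 tested retinoid genes, 12 were above 0 and 8 below, and of 9 tested vitamin D and steroid genes 2 were above 0 and 7 below. The male-biased list had 5 of 14 above 0 and the female-biased list 8 of 18, and none of these genes was called. The female-biased list holds 6 P450 genes of the set, and without them 4 of 13 tested genes were above 0. In Cre replicate 10 the median deviation of these 13 genes from their mean over the 6 libraries was -0.054 (log2). For the 14 tested male-biased genes it was -0.048.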

How the data were processed

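Liver RNA of 6 libraries was measured by mRNA sequencing, 3 per vector, grouped by the sample titles. The authors deposited a table of raw read counts, whole numbers that were not normalized. The submitters' processing notes name STAR 2.7.9a, featureCounts 2.0.1 and the build GRCm38 (mm10). The sources used here state neither the strand setting nor the treatment of multi-mapping reads, which leaves the counts of near-identical copies, overlapping genes and antisense genes uncertain. 5 columns of per-sample values match no sample and were not used.

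Total counts were 20340994 to 20817837 per library. All genes were tested with edgeR 4.0.16 (R 4.3.3, limma 3.58.1): filterByExpr, TMM scaling, a quasi-likelihood F test of Cre-miR122 minus Cre, two-sided, Benjamini-Hochberg adjusted p under 0.05 over 14374 genes. SEs were derived from the F statistic and 95% intervals from the t quantile. CPM used TMM-scaled totals. The script was tested on simulated data. No 2 libraries agreed within counting error. Alternatives were other scalings and filters, DESeq2 1.42.0, limma-voom, robust dispersion, near-identical copies left out and each library left out in turn. The count at unadjusted p and the family sums without single libraries were added after seeing the data.

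The genes and lists were chosen with earlier results of these data known. The rule named the 24 tested P450 genes with the highest CPM, the 8 with the smallest p and a fixed set by role, and up to 3 genes of each other list. Shared words were counted over GENCODE M21 transcripts.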

Additional observations from a re-analysis of the deposited data

How the results depend on the processing

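With 3 libraries a group, no gene of the set was called under any alternative, so stability could not be read from calls. No paired analysis was possible because the groups share no replicate numbers. The count of called genes over the whole table was 0 in edgeR, 2 with no filter on low counts and 3 with DESeq2, and 0 whichever library was left out. The count of P450 genes at an unadjusted p under 0.05 was 1, and 0 with upper-quartile scaling, 3 with no filter, 2 with DESeq2 and 0 to 5 with 1 library left out. Over all genes the share at that p was 5.41%, and 5.43%, 5.01% and 3.62% under the first 3 of these settings and 2.9% to 10.5% with 1 library left out. The cause was not tested. Low counts limit Cyp1a1, Cyp3a41a, Cyp4f18 and Cyp46a1. The 5 genes at an unadjusted p under 0.05 without Cre-miR122 replicate 1 include Cyp1a1, which was not tested with all 6 libraries.

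Of 377 values of the 27 genes under alternatives, 345 kept their direction and 32 reversed, in 14 genes. Cyp1a2 was -0.0080 with upper-quartile scaling and -0.015 with no scaling, and Cyp3a59 0.00060 with RLE scaling, 0.0035 with no filter and 0.00061 with DESeq2. With 1 library left out in turn, the log2 fold change ran from -0.12 to 0.085 for Cyp1a2, -0.27 to 0.18 for Cyp1b1, -0.20 to 0.066 for Cyp3a11, -0.16 to 0.20 for Cyp3a25, -0.32 to 0.024 for Cyp3a57 and -0.22 to 0.22 for Cyp3a59. It ran from -0.49 to 0.084 for Cyp4a10, -0.53 to 0.11 for Cyp4a14, -0.31 to 0.26 for Cyp4a32, -0.14 to 0.26 for Cyp4b1, -0.082 to 0.054 for Cyp4f15 and -0.023 to 0.30 for Cyp4f17. For Cyp17a1 it ran from -0.90 to 0.36 and for Cyp26b1 from -0.30 to 0.32. The median over the set ran from -0.11 to 0.10, and the log2 ratio of the summed Cyp4a level from -0.47 to 0.07. The genes that never reversed also moved, from 0.05 to 0.17 for Cyp20a1, 0.17 to 0.42 for Cyp39a1, 0.15 to 0.55 for Cyp3a13, 0.09 to 0.45 for Cyp3a16, 0.21 to 0.98 for Cyp3a41a, 0.15 to 0.64 for Cyp3a44 and 0.0081 to 0.28 for Cyp4v3. For Cyp46a1 the range was -0.98 to -0.43, for Cyp4a31 -0.24 to -0.08, for Cyp4f13 -0.12 to -0.02, for Cyp4f14 -0.31 to -0.04, for Cyp4f16 0.11 to 0.26 and for Cyp4f18 -0.98 to -0.38.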
